A study of Drosophila melanogaster with 11 samples.

Results

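The Dpp pathway genes described here are 10 entries, of 15858 named entries in the deposited count table, that carry a ligand-to-target chain of bone morphogenetic protein (BMP) signalling in the fly. They were picked by gene symbol: dpp, tkv, put, Mad, Med, brk, Dad, bi (also called omb), salm and salr, and all 10 symbols were found. RNA-seq counts per gene came from Drosophila melanogaster larvae at the 3rd instar, from their salivary glands or their wing discs. The larvae were of the w1118 strain (wild type) or homozygous for dCap-D3 c07081, an insertion allele of a condensin II subunit gene that every cell of the mutant animal carries. There were 3 wild-type and 3 mutant salivary libraries, and 3 wild-type and 2 mutant wing libraries, and each sample pooled 50 salivary glands or 150 wing discs. The salivary libraries were non-directional and the wing libraries directional, so a difference between tissues and a difference between library kinds cannot be told apart. The labels do not say whether libraries of 1 group stem from different cultures; the p-values then measure the spread between these samples, which may be technical.

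Dpp is a secreted BMP-type ligand. In the wing disc, the larval epithelium that forms the adult wing, it is made in a stripe of cells next to the border between the anterior and posterior compartments, where Hedgehog signalling switches it on, and it spreads to both sides. Its receptor joins the type I subunit Thickveins (tkv) and the type II subunit Punt (put), which lead to phosphorylation of the Smad protein Mad; Mad enters the nucleus with the co-Smad Medea (Med). There the complex shuts off brinker (brk), which encodes a repressor of Dpp target genes, and switches on Dad, which encodes an inhibitory Smad that dampens the pathway. The T-box gene bi and the zinc finger genes salm and salr are turned on where Brinker is low and pattern the wing. The larval salivary gland makes glue proteins in large polytene cells and has a small ring of diploid imaginal cells; in the embryo, Dpp signalling limits the salivary primordium to ventral cells.

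The genes lie on 3 chromosomes (build BDGP6, positions from the deposited table). On 2L are dpp (FBgn0000490, 2428372 to 2459823, plus strand), Mad (FBgn0011648, 3146056 to 3159643, minus) and tkv (FBgn0003716, 5219000 to 5271384, minus). The neighbours salr (FBgn0000287, 11358873 to 11373636, plus) and salm (FBgn0261648, 11434311 to 11445614, minus), which encode related proteins, also lie on 2L and are 60674 bases apart. On 3R are put (FBgn0003169, 14619030 to 14625703, minus), Dad (FBgn0020493, 17054007 to 17070408, plus) and Med (FBgn0011655, 31611046 to 31615375, plus). On X are bi (FBgn0000179, 4412856 to 4485647, plus) and brk (FBgn0024250, 7307939 to 7311132, plus). The exon lengths used for levels per kilobase ran from 3194 bases for brk to 6118 for salm. They join the exons of all annotated transcripts of a gene, from 1 for brk to 7 for bi. Reads of a gene and its antisense partner cannot be told apart without strand: exons of the opposite-strand genes CycG and Mnat9 cover 9.66% and 2.69% of the exon bases of Med, and those of CR14033 and TpnC25D cover 3.56% and 1.22% of those of tkv. The other 8 genes share no exon base with an annotated gene.

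Libraries held 52483062 to 157639534 counts in named genes, the deepest being wing wild-type replicate 3, whose library number (59) also stands apart from the rest (22 to 31). Cap-D3, the mutated gene, stood at 4.363 to 5.206 CPM, the counts scaled to library size, in salivary wild type and 0.0516 to 0.0664 in the mutant (log2 fold change -6.33 ± 0.22, adjusted p = 0.000143). In wing discs it stood at 12.86 to 25.85 CPM in wild type and 2.611 and 2.925 in the mutant (-2.75 ± 0.37, adjusted p = 0.0912), a difference that passed the threshold with edgeR's likelihood ratio test and with DESeq2. The ± beside each log2 fold change gives the standard error, and adjusted p-values are two-sided, from edgeR's quasi-likelihood F-test with Benjamini-Hochberg adjustment over all genes tested; a gene is called at 0.05 or below. The 10 salivary gland markers summed to 276900 to 348300 CPM in wild-type and 198100 to 266000 CPM in mutant salivary glands, and to at most 645.6 CPM in wing discs. The 12 wing disc markers summed to 769.3 to 1849 CPM in wing libraries and 21.18 to 54.45 CPM in salivary libraries. Fat body markers summed to 73960 to 112000 CPM in wild-type and 96050 to 153200 CPM in mutant salivary libraries. The part of fat body RNA in the salivary levels given below was not tested.

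The first comparison set wild-type wing discs against wild-type salivary glands. The ligand, both receptors, the inhibitory Smad and the 3 target genes were higher in the wing disc, and the Smads and brk were not called. Of the 10 genes, 7 were called, 7 higher and 0 lower; among all 9718 genes tested, 70.4% were called, 40.2% being higher in the wing disc. The same 7 genes had CPM ranges wholly above the salivary ranges, against 43.7% of all genes. CPM values in this comparison were scaled over the 6 wild-type libraries together.

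For the ligand gene dpp, salivary replicates 1 to 3 held 4.464, 4.952 and 4.214 CPM, and wing replicates 1 to 3 held 31.4, 18.62 and 49.23 CPM. Every wing library was above every salivary library, and the log2 difference was 2.86 ± 0.38 (7.28-fold, adjusted p = 0.000889). The type I receptor gene tkv stood at 45.04, 48.28 and 39.14 CPM in salivary glands and at 183.7, 121.9 and 312.9 CPM in wing discs (2.22 ± 0.38, adjusted p = 0.00242). The type II receptor gene put differed less, with 40.71, 46.38 and 49.26 CPM against 85.25, 72.84 and 114.7 CPM (1.0 ± 0.23, adjusted p = 0.00854). Wing replicate 2 was the lowest and wing replicate 3 the highest of the wing libraries for all 3 genes.

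Levels of the signal-transducing Smads overlapped between tissues. Mad stood at 44.42 to 57.99 CPM in salivary glands and 40.96 to 74.21 CPM in wing discs (log2 difference 0.14 ± 0.26, 95% interval -0.50 to 0.78, adjusted p = 0.66). Med stood at 33.59 to 39.24 and 28.18 to 60.04 CPM (0.18 ± 0.30, interval -0.55 to 0.91, adjusted p = 0.623). With DESeq2's size factors in edgeR, the median over all genes moved from 0.28 to 0.03 and the signs of Mad (-0.13) and Med (-0.10) turned, so no direction is given for them.

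The repressor brk was the only gene of the 10 with a lower mean in the wing disc. It stood at 40.55, 43.16 and 51.65 CPM in salivary glands and 28.74, 18.65 and 50.35 CPM in wing discs, and the ranges overlapped through wing replicate 3 (log2 difference -0.47 ± 0.37, interval -1.37 to 0.43, adjusted p = 0.297). Without wing replicate 3 the difference was -0.94 ± 0.20 and passed the threshold (adjusted p = 0.00949), which brought the genes called to 8. Leaving out any other of the 6 libraries kept brk short of the threshold, with adjusted p up to 0.566.

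Of the genes switched on by Dpp in the wing disc, salm and salr showed larger fold differences than the ligand gene. Those of Dad (9.17-fold) and bi (7.17-fold) were near that of dpp (7.28-fold). Differences between genes were not tested. Dad stood at 8.04, 6.034 and 6.043 CPM in salivary glands and 61.86, 35.91 and 86.67 CPM in wing discs (3.20 ± 0.37, adjusted p = 0.000555). For bi the values were 7.771, 3.68 and 3.853 CPM against 32.65, 14.57 and 62.49 CPM (2.84 ± 0.61, adjusted p = 0.00632). Both genes were highest, among salivary libraries, in replicate 1. The spalt gene salm stood at 2.097, 2.192 and 1.358 CPM against 44.57, 23.92 and 99.55 CPM (4.89 ± 0.62, 29.7-fold, adjusted p = 0.000759), and its neighbour salr at 4.545, 3.843 and 2.301 CPM against 91.04, 53.17 and 163.7 CPM (4.85 ± 0.54, 28.8-fold, adjusted p = 0.000481). The 7 calls held in the 10 other fits of this comparison, including each that left out 1 library.

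**Figure D1:**
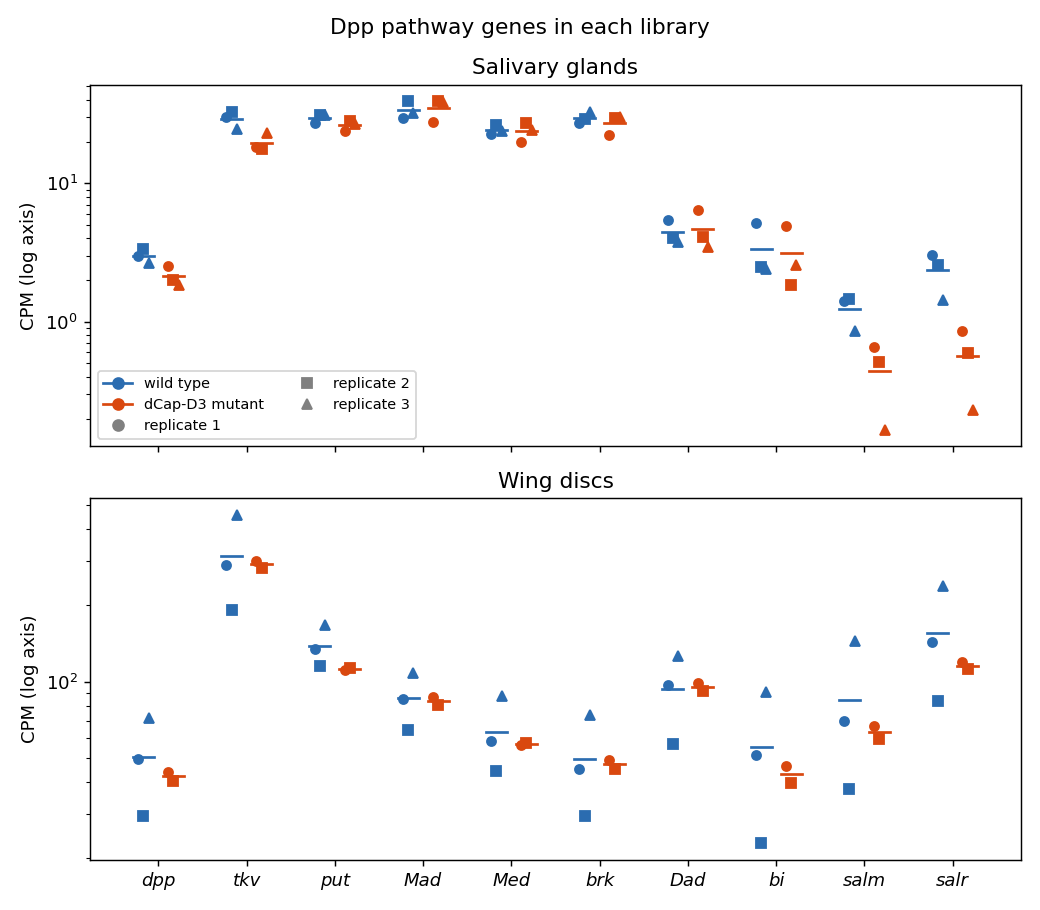
CPM of the 10 genes in each library (log axis; upper panel salivary glands, lower panel wing discs; blue wild type, orange dCap-D3 mutant; marker shapes give the replicate and short bars the group mean). CPM was scaled within each tissue, so levels are to be read within a panel: salm and salr stand lowest in mutant salivary glands, and wing wild-type replicate 3 is the highest of the 5 wing libraries for 10 of 10 genes.

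Within a library the order of the genes can be read per kilobase of exon, on CPM scaled within each tissue. In wild-type salivary glands the order of mean levels was Mad (9.86 ± 1.40 CPM per kilobase, SD, n = 3), brk (9.25 ± 0.838), put (7.42 ± 0.544), Med (7.08 ± 0.571), tkv (6.56 ± 0.911), Dad (1.13 ± 0.218), dpp (0.573 ± 0.0652), bi (0.552 ± 0.261), salr (0.426 ± 0.149) and salm (0.203 ± 0.0555). The ranges of neighbours in this order did not overlap between brk and put, tkv and Dad, Dad and dpp, and salr and salm, and overlapped for the other neighbours. In wild-type wing discs tkv led (70.5 ± 30.2 CPM per kilobase, SD, n = 3), followed by put (34.6 ± 6.64), salr (28.0 ± 14.1), Mad (25.2 ± 6.42), Dad (23.9 ± 8.99), Med (18.5 ± 6.44), brk (15.4 ± 6.99), salm (13.8 ± 9.02), dpp (9.63 ± 4.08) and bi (9.05 ± 5.62). There, only the ranges of tkv and put stood apart; those of all other neighbours overlapped. The 2 wing mutant libraries gave the same order but for salr, which stood 5th at 20.8 ± 0.919 CPM per kilobase (SD, n = 2), after Mad and Dad.

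The balance of brk against other genes of the pathway needs no scaling between libraries, because it is a ratio within each. In salivary glands brk outweighed Dad per kilobase in every library, with ratios of 6.17, 8.75 and 10.5 in wild type and 4.25, 8.84 and 10.6 in the mutant. In wing discs Dad outweighed brk in every library, with ratios of 0.568, 0.635 and 0.71 in wild type and 0.609 and 0.603 in the mutant. Against salr the brk ratio was 15.5, 19.5 and 38.9 in wild-type salivary glands and 45.1, 86.6 and 223 in mutant ones. In wing discs the same ratio was 0.547, 0.608 and 0.533 in wild type and 0.713 and 0.7 in the mutant. The mutant salivary ratios rest on only 50, 43 and 14 salr counts. How often such ratios stand apart by genotype among all genes was not counted, and the ratios were not tested. For brk over salm the genotypes overlapped in both tissues, at 37 to 72.8 in wild-type and 65.6 to 345 in mutant salivary glands, and at 0.969 to 1.49 and 1.4 to 1.46 in wing discs. For brk over tkv they overlapped in salivary glands, where wild type ran from 1.24 to 1.83 and the mutant from 1.71 to 2.35. Against bi, brk was in excess per kilobase in both tissues, at 8.63 to 30.8 in salivary glands and 1.54 to 2.44 in wing discs. In raw counts bi was above brk in wing wild-type replicates 1 (3221 against 2835) and 3 (15514 against 12500). In every other library brk had more counts, and the excess in wing discs depends on the exon lengths used. The ratio of brk to the Smad genes was higher in every salivary library than in any wing library. For Mad it ran from 0.795 to 1.08 in salivary glands and from 0.487 to 0.725 in wing discs. For Med it ran from 1.17 to 1.46 and from 0.71 to 0.935.

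**Figure D2:**
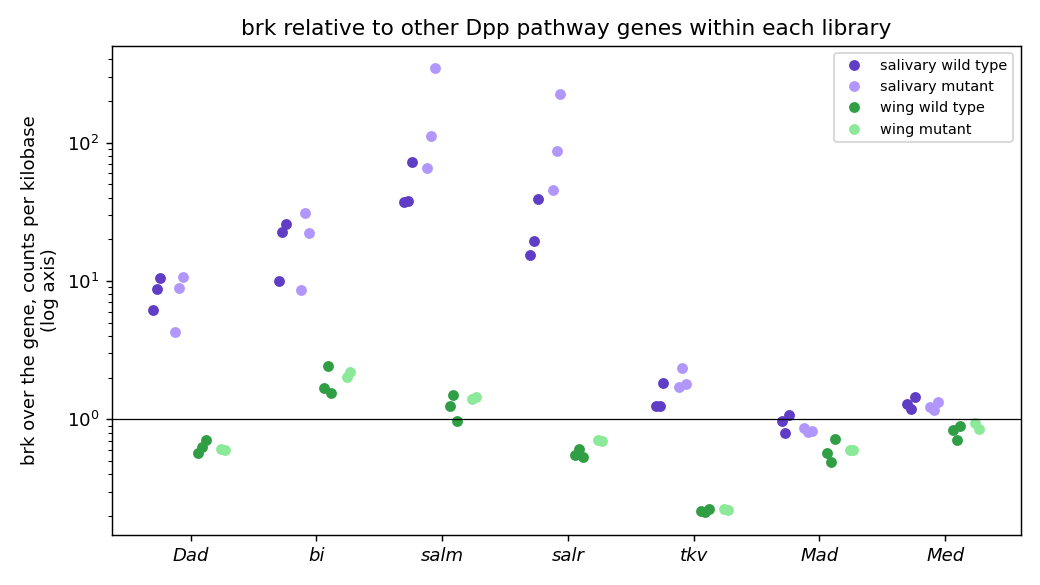
Counts per kilobase of brk divided by those of 7 other genes, within each library (log axis; dark purple salivary wild type, light purple salivary mutant, dark green wing wild type, light green wing mutant; each point is 1 library and the line marks a ratio of 1). The ratio to Dad lies between 4.25 and 10.6 in the salivary libraries and between 0.568 and 0.71 in the wing libraries.

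The salivary comparison set dCap-D3 mutant against wild-type glands. The spalt genes salm and salr, the ligand gene dpp and the receptor gene tkv had lower values in every mutant library than in any wild-type library, but 0 of the 10 genes were called with edgeR's quasi-likelihood test. Of all 9004 genes tested, 10.7% were called, and 19.0% had a mutant CPM range wholly below the wild-type range. At an unadjusted p under 0.05, 4 of the 10 passed, against 2651 of all genes; the likelihood ratio test of edgeR and DESeq2 called 2 each, salr and tkv. The median log2 fold change of the 10 was -0.15, beside -0.04 over all genes, and 8 of the 10 were below 0, beside 53.9% of all genes.

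The gene salr held 169, 142 and 83 counts in wild-type salivary replicates 1 to 3 and 50, 43 and 14 in mutant replicates 1 to 3. Scaled to CPM these were 3.044, 2.581 and 1.445 against 0.8596, 0.5948 and 0.2325, so the highest mutant library stood below the lowest wild-type library. The log2 fold change was -2.06 ± 0.54 (95% interval -3.39 to -0.74, adjusted p = 0.0635), and the adjusted p was 0.00603 with the likelihood ratio test and 0.00255 with DESeq2. Over the other settings, those that left out a library included, the quasi-likelihood adjusted p ran from 0.051 to 0.194. In the authors' deposited table salr had a log2 fold change of -1.97 and a false discovery rate of 0.000328, where 16.5% of 11021 genes were at 0.05 or below.

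Its neighbour salm was the least abundant of the 10 and gave 78, 81 and 49 counts in wild type and 38, 37 and 10 in the mutant. The CPM values were 1.405, 1.472 and 0.8531 against 0.6533, 0.5118 and 0.1661. Mutant replicate 3 was again the lowest library, and the log2 fold change was -1.48 ± 0.54 (interval -2.81 to -0.16, adjusted p = 0.135). The likelihood ratio test gave an adjusted p of 0.0776 and DESeq2 0.055, while the authors' deposited table listed -1.44 with a false discovery rate of 0.0214.

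The receptor gene tkv stood at 30.17, 32.43 and 24.58 CPM in wild type and 18.21, 17.57 and 23.18 CPM in the mutant. The groups were apart by the gap between wild-type replicate 3 and mutant replicate 3, and the log2 fold change was -0.56 ± 0.16 (interval -0.95 to -0.18, adjusted p = 0.0737; 0.0451 with the likelihood ratio test, 0.0188 with DESeq2). The authors' deposited table gave a false discovery rate of 0.317 for it. The ligand gene dpp stood at 2.99, 3.327 and 2.646 CPM in wild type and 2.544, 1.992 and 1.843 CPM in the mutant, with a log2 fold change of -0.49 ± 0.20 (interval -0.97 to -0.02, adjusted p = 0.159). Its adjusted p was 0.315 with the likelihood ratio test and 0.132 with DESeq2. Its false discovery rate in the authors' deposited table was 0.493.

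For the other 6 genes the genotypes overlapped. The log2 fold changes were -0.18 ± 0.10 for put, 0.06 ± 0.18 for Mad, -0.03 ± 0.14 for Med, -0.11 ± 0.14 for brk, 0.08 ± 0.27 for Dad and -0.11 ± 0.48 for bi, and adjusted p-values ran from 0.288 to 0.9. The intervals for Med (-0.37 to 0.31) and put (-0.43 to 0.07) were the narrowest, while that of bi (-1.27 to 1.05) leaves room for a 2-fold difference either way. The width for bi came with a spread inside both groups: replicate 1 stood at 5.206 CPM in wild type and 4.951 in the mutant, and the other 4 libraries at 1.84 to 2.557. Dad was likewise highest in replicate 1 of each genotype, at 5.386 and 6.447 CPM against 3.454 to 4.108 in the rest. Salivary replicates are numbered in accession order, and the numbers pair nothing.

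The summed wing disc markers, like salm, salr, dpp and tkv, were lower in every mutant salivary library than in any wild-type one. Library by library they differed. The marker sum and tkv were lowest in mutant replicate 2, and salm, salr and dpp in mutant replicate 3. All 12 wing disc markers had counts in every salivary library, but for pdm2 at 0 in mutant replicate 3. Their sum was 54.45, 38.79 and 38.34 CPM in wild type and 37.39, 21.18 and 27.13 in the mutant, without overlap. Of the 12, nub, rn, wg, hh, zfh2 and pdm2 (6) had mutant ranges wholly below wild type, beside 19.0% of all genes, and the other 6 overlapped. For nub the values were 1.08 to 2.84 CPM in wild type and 0.0166 to 0.911 in the mutant, while ap, the most abundant, stood at 11.9 to 22.6 and 11.8 to 16.9, and en at 0.783 to 1.5 and 0.083 to 1.17. The 10 markers of other imaginal discs summed to 33.13 to 56.78 CPM in wild type and 22.37 to 35.74 in the mutant; 4 of them were wholly below, 6 overlapped, and Antp stood at 7.76 to 12.9 in wild type and 8.99 to 14.1 in the mutant. The 8 tracheal markers summed to 101.5 to 123.1 and 62.57 to 86.09. Gut markers summed to 108.1 to 11410 CPM in wild type, highest in replicate 2, and 184.6 to 307.1 in the mutant. Fat body markers summed to 73960 to 112000 CPM in wild type and 96050 to 153200 in the mutant. Mutant ranges were also wholly below for 5 of 10 salivary gland, 5 of 8 hemocyte and 5 of 12 muscle and myoblast markers. The same held for 6 of 8 tracheal, 6 of 10 gut and 0 of 9 fat body markers. Wholly above were 3 fat body markers, 1 hemocyte marker and 1 gut marker. The part of these cells in the result was not tested; in bulk tissue, fewer cells of a type and less RNA per cell cannot be told apart.

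Setting each gene against the summed counts of the 12 wing disc markers of its own library, a scale chosen after seeing the data, changed which genes stood apart. The share for salr was 5.59%, 6.65% and 3.77% in wild-type salivary glands and 2.3%, 2.81% and 0.857% in mutant ones, still without overlap; 5.18% of all genes were lower without overlap on this scale. With the wing disc marker counts as library sizes, the log2 fold change of salr was -1.42 ± 0.47 (adjusted p = 0.0511). For salm the shares overlapped (2.23% to 3.8% against 0.612% to 2.42%), and for dpp (5.49% to 8.58% against 6.79% to 9.41%) and tkv (55.4% to 83.6% against 48.7% to 85.4%) they overlapped too. The fitted log2 fold changes on this scale were -0.85 ± 0.52 for salm (adjusted p = 0.208), and they turned sign for dpp, from -0.49 to 0.13 ± 0.33, and for tkv, from -0.56 to 0.10 ± 0.34. In salivary libraries the marker sum was 21.18 to 54.45 CPM, and ap alone gave 11.8 to 22.6 CPM of it. Whether the sum follows the content of disc cells there was not tested. Dad came out higher in the mutant without overlap, at 9.89% to 10.4% against 12.7% to 19.4%, where 37.4% of all genes did the same. This scale moved the median of all genes from -0.04 to 0.63, and 84.3% of its calls were higher in the mutant, beside 53.6% with the usual scaling. For the 10 genes, the median ratio of highest to lowest wild-type salivary library went from 1.31 on the CPM scale to 1.63. The ratio was smaller for 4 of 10. Over all genes it went from 1.29 to 1.55 and was smaller for 30.5%.

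The wing comparison set dCap-D3 mutant against wild-type wing discs. None of the 10 genes was called with edgeR's quasi-likelihood test, 0 had an unadjusted p under 0.05, and the likelihood ratio test and DESeq2 also called 0; of all 9699 genes tested, 0.485% were called, and 924 had an unadjusted p under 0.05. The 10 log2 fold changes ran from -0.43 ± 0.46 for salr to 0.02 ± 0.36 for Dad. Both mutant libraries lay inside the wild-type range for 9 of 10 genes, beside 59.4% of all genes. In the authors' deposited table, where 13.1% of genes had a false discovery rate of 0.05 or below, the lowest rate among the 10 was 0.71, for put.

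The exception was put, which stood at 134.1, 114.7 and 167.4 CPM in wild type and 111.2 and 113.6 CPM in the mutant. The mutant range lay just below the wild-type range, as it did for 11.7% of all genes, and the log2 fold change was -0.30 ± 0.22 (interval -0.86 to 0.25, adjusted p = 0.988). The ligand gene dpp stood at 49.4, 29.32 and 71.83 CPM in wild type and 43.84 and 40.41 CPM in the mutant (-0.25 ± 0.40, interval -1.28 to 0.77). The target gene salr stood at 143.2, 83.72 and 238.8 CPM against 119 and 111.8 CPM (interval -1.62 to 0.76), and salm at 70.12, 37.66 and 145.2 CPM against 66.84 and 59.05 CPM (-0.42 ± 0.59, interval -1.93 to 1.09). In each case the mutant libraries lay close together and the wild-type libraries far apart.

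**Figure D3:**
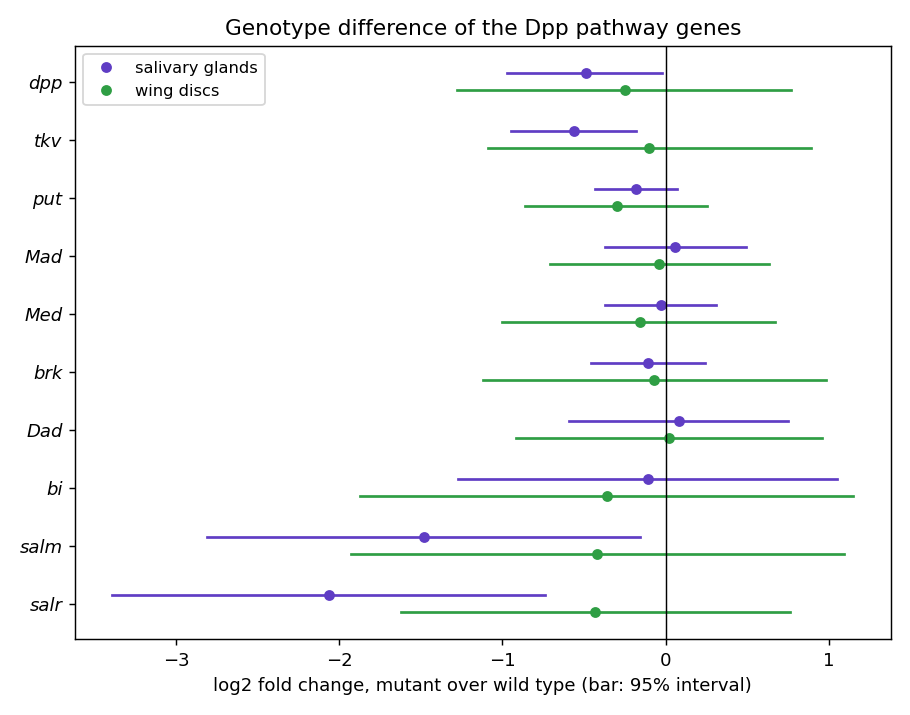
Log2 fold change of the 10 genes, mutant over wild type, in salivary glands (purple) and wing discs (green), with 95% intervals from the quasi-likelihood fit. In salivary glands the intervals of dpp, tkv, salm and salr lie below 0 before any adjustment for the number of genes tested, and in wing discs all 10 intervals span 0.

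The spread among wild-type wing libraries was shared by the genes. Replicate 3 was the highest of the 5 wing libraries for 10 of 10 genes, beside 34% of all genes, and replicate 2 the lowest for 9 of 10, beside 34.5%. The ratio of the highest to the lowest wild-type library was 2.45 for dpp, 2.38 for tkv, 2.5 for brk, 2.24 for Dad, 3.98 for bi, 3.86 for salm and 2.85 for salr, and smaller for put (1.46), Mad (1.68) and Med (1.97). The summed wing disc markers moved the same way, with 1243, 769.3 and 1849 CPM in wild-type replicates 1 to 3 and 1210 and 1144 CPM in the mutants. Fat body markers stood at 17310 CPM in wild-type replicate 2, and at 1900 to 4810 CPM in the other 4 wing libraries. Their part in the spread was not tested. Without wild-type replicate 3, the log2 fold changes ran from -0.17 for put to 0.32 for brk, and 9 of the 10 were above 0, where 9 were below 0 with all libraries.

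As a share of the wing disc marker counts, the genes differed in how far they varied between wild-type wing libraries. The shares of dpp were 3.97%, 3.81% and 3.89%, those of tkv 23.2%, 24.9% and 24.7%, and those of brk 3.64%, 3.82% and 3.97%. Those of bi ran from 2.98% to 4.93% and those of salm from 4.9% to 7.86%. The ratio of the highest to the lowest wild-type library on this scale was 1.04 for dpp, 1.07 for tkv, 1.09 for brk, 1.14 for Dad, 1.19 for salr and 1.23 for Med, but 1.43 for Mad, 1.6 for salm and 1.65 for both put and bi. Over the 10 genes the median ratio of highest to lowest wild-type library went from 2.41 on the CPM scale to 1.21 on this scale, and the ratio was smaller for 9 of 10, put being the exception. Over all genes that ratio went from 1.72 to 2.7 and was smaller for 25.8%. Over 49 other genes of the pathway, described below, it went from 2.32 to 1.48 and was smaller for 31 (63.3%). The list of other pathway genes holds 5 of the markers. Among the 12 markers are vg, hh, en, Doc2 and tsh, which act in or downstream of the same patterning system, and the list was set with earlier results known, so this is a description of these libraries.

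On that scale 3 genes had mutant wing discs outside the wild-type range. For dpp the mutant shares were 3.62% and 3.53%, below the wild-type range, and for salr they were 9.83% and 9.77%, against 11.5%, 10.9% and 12.9% in wild type; 9.79% of all genes were lower without overlap. For Dad the mutant shares were 8.13% and 7.99%, above 7.83%, 7.35% and 6.84%, as for 6.28% of all genes. The shares of tkv in the mutant, 24.8% and 24.7%, lay inside the wild-type range, as did those of put, Mad, bi and salm, while those of Med and brk overlapped it. With the marker counts as library sizes, 0 of the 10 genes were called in the wing comparison.

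**Figure D4:**
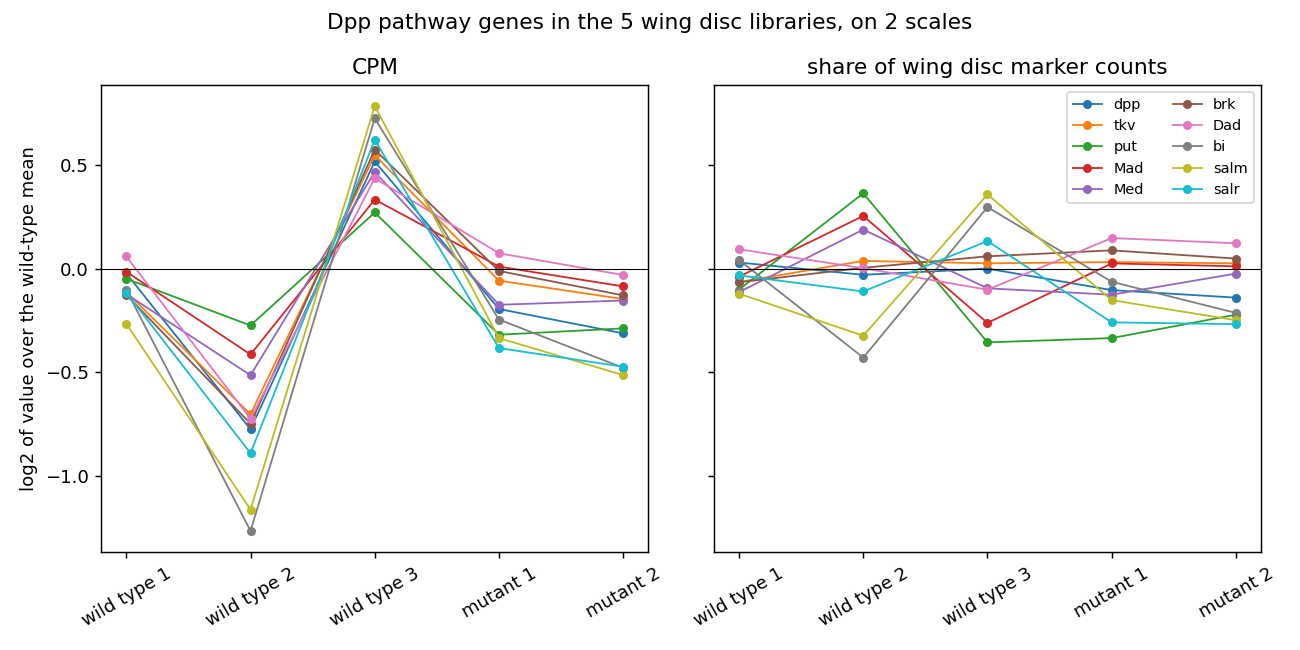
The 10 genes in the 5 wing libraries on 2 scales, as the log2 of the value over the wild-type mean (left, CPM; right, share of the counts of 12 wing disc markers; 1 line per gene). On the CPM scale the lines dip together in wild-type replicate 2 and peak together in replicate 3; on the marker scale the median ratio of highest to lowest wild-type library is 1.21 in place of 2.41.

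Whether the genotype difference itself differed between tissues was tested over all 11 libraries. Of the 10 genes, 0 were called with edgeR's quasi-likelihood test, 0 had an unadjusted p under 0.05, and 0 were called with the likelihood ratio test or DESeq2; of all 10835 genes tested, 0.858% were called, and 1412 had an unadjusted p under 0.05. The gene with the widest gap was salr, with a wing effect minus salivary effect of 1.46 ± 0.74 (95% interval -0.21 to 3.12, adjusted p = 0.462), and the next was salm with 0.87 ± 0.82 (-0.98 to 2.73, adjusted p = 0.713). For tkv the value was 0.30 ± 0.45 and for dpp 0.07 ± 0.46. The lower salivary values of these 4 genes are therefore not shown to differ from what the wing discs gave.

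Beyond the 10 genes, a list of 53 other genes of the pathway was read in the same fits, by role. In salivary glands 50 could be tested; 0 were called higher and 3 lower, where 4.94% of all genes were called lower. The glypican gene dlp, whose product binds secreted morphogens at the cell surface, fell from 13.95 ± 1.47 CPM (SD, n = 3) in wild type to 6.898 ± 0.56 CPM in the mutant (n = 3). That is -1.02 ± 0.12 on the log2 scale, with an edgeR adjusted p of 0.00576. The genes ci, which encodes the transcription factor of Hedgehog signalling, and ptc, which encodes the Hedgehog receptor, fell by 0.96 ± 0.16 (adjusted p = 0.0187) and 0.50 ± 0.11 (adjusted p = 0.0396) on the log2 scale. The call for dlp held without each of the 6 libraries (adjusted p up to 0.0456), but ended in the fit over all 11 libraries (0.111) and with the wing disc marker scale (0.306). The call for ci ended without wild-type replicate 1 (0.0582) or 2 (0.0696) and without mutant replicate 2 (0.0683) or 3 (0.107), and that for ptc without any library but mutant replicate 1 (0.0733 to 0.174). The ptc call also ended without the filter on low counts (0.076), with the likelihood ratio test (0.0765) and over all 11 libraries (0.544), where that of ci ended too (0.223). Without mutant replicate 1, 10 of the list were called, and 1 each without wild-type replicate 2, mutant replicate 2 or mutant replicate 3. On the wing disc marker scale ptc had a value of 0.15 and ci of -0.34, neither called.

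By role, the salivary medians stood at -0.16 for 5 ligand genes, 0.01 for 3 receptor genes, 0.26 for 3 Smads and nuclear partners, -0.40 for 10 extracellular regulators, 0.11 for 5 intracellular regulators, -0.87 for 20 genes regulated by the gradient in the wing and -0.99 for 4 genes of Hedgehog input. Of the 20 gradient genes 18 were below 0, beside 53.9% of all genes, and 0 were called with edgeR's quasi-likelihood test. An unadjusted p under 0.05 was reached by 5 of the 20, beside 2651 of all 9004 genes. Of these 5, pnr, knrl, ab and kni had values from -1.46 to -2.05, and tup stood higher in the mutant at 0.91 ± 0.36. Their mutant means were low, at 0.5874, 0.1834, 1.148 and 0.3811 CPM for pnr, knrl, ab and kni and 3.15 CPM for tup. Others of the 20 were near the floor too, such as vg at a wild-type mean of 0.3851 CPM (-0.40 ± 1.60). Low counts limit the median and these values. The whole list had a median of -0.50, beside -0.04 over all genes, and 34 of 50 were below 0. None of the 3 Smads and nuclear partners or the 5 intracellular regulators was below 0. The list holds 5 of the wing disc markers, whose sum was lower in every mutant salivary library, as given above; the part of disc cells in these medians was not tested.

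In wing discs 49 of the 53 could be tested and 0 were called (1 at an unadjusted p under 0.05; 0 with the likelihood ratio test or DESeq2), with a median of -0.16 beside -0.03 over all genes. The most abundant of them were gbb, a BMP ligand gene, at 241 to 291 CPM in wild type and 277 to 285 in the mutant (0.07 ± 0.15), and ci, at 136 to 470 CPM in wild type and 216 to 225 in the mutant (-0.33 ± 0.54). Wild-type replicate 3 was the highest of the 5 wing libraries for 35 of the 49, and replicate 2 the lowest for 40. In the test of the difference between tissues, 0 of 50 were called (3 at an unadjusted p under 0.05; 0 with the likelihood ratio test, 2 with DESeq2), gbb giving 0.10 ± 0.20 and ci 0.46 ± 0.60.

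**Figure D5:**
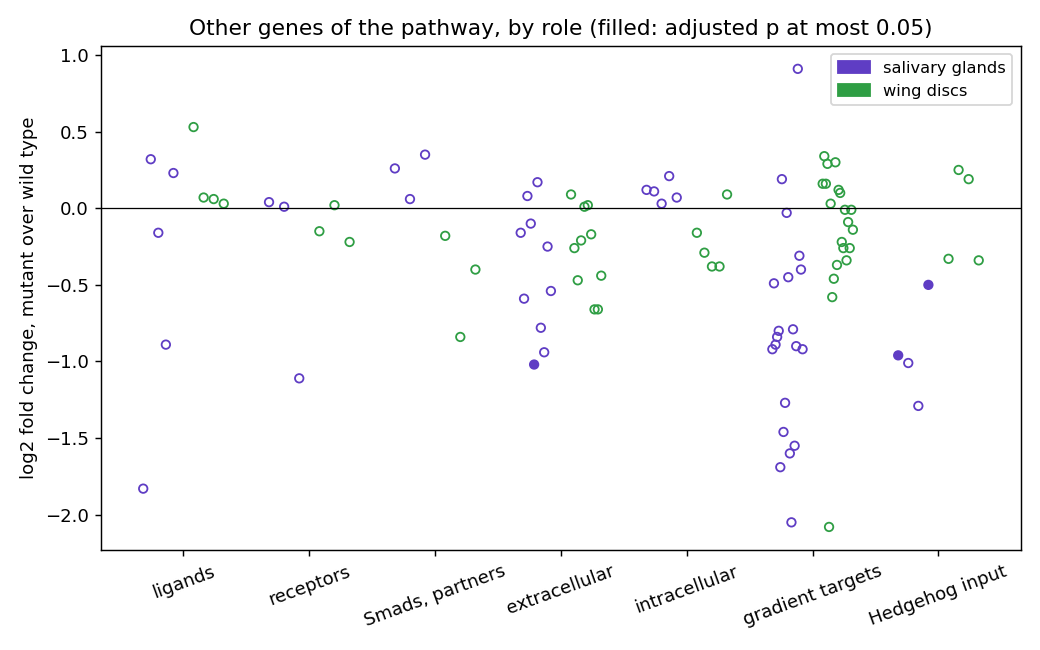
Log2 fold change, mutant over wild type, of the other pathway genes by role, in salivary glands (purple, 50 genes) and wing discs (green, 49 genes); filled circles are called at an adjusted p of 0.05 or below. The 3 filled circles are dlp, ci and ptc in salivary glands, and 18 of the 20 gradient genes lie below 0 in salivary glands.

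Between the wild-type tissues, 30 of 50 other pathway genes were called higher in the wing disc and 4 lower, where 40.2% of all genes were called higher and 30.2% lower. The T-box genes Doc1 and Doc2, expressed in the lateral wing disc, went from 0.626 ± 0.0447 to 28.61 ± 3.63 CPM and from 0.5446 ± 0.0734 to 21.26 ± 1.35 CPM (SD, n = 3 and 3; 5.51 ± 0.20 and 5.28 ± 0.21, both adjusted p = 6.23e-05). The ligand gene hh was higher by 4.09 ± 0.20 (adjusted p = 8.97e-05) and the extracellular BMP cofactor gene cv by 2.97 ± 0.16 (adjusted p = 9.89e-05). The genes lower in the wing disc were cv-d, which encodes a lipoprotein that binds BMPs (-5.07 ± 0.46, adjusted p = 0.000243), the activin-type ligand genes daw (-4.66 ± 0.44, adjusted p = 0.000283) and Actbeta (adjusted p = 0.00327), and the Pax-type gene eyg (-1.60 ± 0.34, adjusted p = 0.00613). Actbeta was near 0 in wing discs, at 0.0334 ± 0.0204 CPM. As with Mad and Med, 0 of the 3 other Smads and nuclear partners (Smox, shn and nej) were called by edgeR in either direction, and 0 had an unadjusted p under 0.05.

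The genes whose profile over the 11 libraries lay nearest to dpp were glu, mu2 and smo, at root mean square differences of 0.151, 0.152 and 0.2 in centred log2 CPM, out of 4702 named genes tested in both tissues. The nearest to brk were Cbl (0.0902), gw (0.11) and l(3)76BDm (0.116). Among the 10 genes, Dad (0.286, 43rd), tkv (0.326, 72nd) and bi (0.425, 181st) lay closest to dpp, and Med (0.32, 370th) and Mad (0.337, 428th) closest to brk. Between dpp and brk the difference was 1.74. The 11 libraries share their tissue, library kind and depth across all genes, and no test was made of these likenesses.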

How the data were processed

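RNA-seq counts of 11 libraries were used. Per the labels' protocols, reads were paired-end and came from mRNA. The deposited table holds raw counts per gene; the submitters' processing notes name HTSeq 0.6.1, TopHat2 2.0.8b, BWA, Picard 1.119, FastQC 0.11.3, Trim Galore 0.3.3 and build BDGP6, but not their roles or how strand was used in counting. The authors' comparison tables give, per the file headers, log2 fold changes and log2 CPM, a likelihood ratio score, p-values and false discovery rates, by a tool not named there.

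Of 16034 entries, 11021 carried a symbol, 4837 were named by position in the annotation (Ensembl BDGP6), and 176 unnamed ones (0.000201% to 0.000607% of a library) were left out. Counts were fitted in R 4.3.3 with edgeR 4.0.16 (limma 3.58.1), each tissue alone: filterByExpr (minimum count 10, total 15), TMM, robust quasi-likelihood F-test, Benjamini-Hochberg. The interaction used 4 groups. Alternatives were DESeq2 1.42.0, the likelihood ratio test, DESeq2's size factors, no filter, all 11 libraries in 1 fit, each library left out, and, chosen after seeing the data, the summed wing disc markers as library size. The fit was tested on simulated data with the same dispersion for every gene and no outlying library, a simpler setting than these data. Standard errors are the log2 fold change over the square root of F. Library totals of 52483062 to 157639534 counts set the precision; intervals cover these libraries only.

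The members and all gene lists were chosen with earlier results of these data known. All 10 members were named in each comparison. Of other pathway genes the text names up to 4 called per direction by adjusted p, or, without a call, the 2 most abundant; further genes named were chosen after their values were seen. Nearest profiles used log2 CPM with a prior count of 2. Between replicates, chi-square values over their degrees of freedom lay between 21 and 1640, and none were duplicates. Marker lists of hemocytes and of muscle and myoblasts were also summed: hemocyte markers stood at 58.95 to 102.2 CPM in salivary and 15.49 to 72.63 in wing libraries, muscle and myoblast markers at 102 to 188.4 and 168.4 to 367.9.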

Additional observations from a re-analysis of the deposited data

How the results depend on the processing

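No paired analysis was possible because the labels give no replicate numbers, and numbers set in accession order pair nothing. In salivary glands 2 of the 10 genes were called with the likelihood ratio test and 2 with DESeq2, beside 0; other pathway genes called were 9, 15 and, on the wing disc marker scale, 1, beside 3. The fit over 11 libraries also called 3, but not dlp, ci or ptc. Genes called in all went from 959 to 2091 with DESeq2 in salivary glands, from 47 to 463 (likelihood ratio test), 583 (DESeq2), 140 (11 libraries) and 6 (marker scale) in wing discs, and from 93 to 525 and 623 for the interaction, where DESeq2 called 2 other pathway genes. Of the salivary calls 84.3% were higher on the marker scale, beside 53.6%. Of the 463, 583, 140 and 6 wing calls, 41.5%, 43.4%, 53.6% and 83.3% were higher, beside 66%. Of the interaction calls 36.6% were higher, beside 52.5% with DESeq2.

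Signs turned for values that were not called, except ptc. In salivary glands Med gave 0.01 without the filter and 0.03 over 11 libraries; on the marker scale dpp gave 0.13, tkv 0.10, put 0.48, Med 0.66, brk 0.57, bi 0.49 and ptc 0.15. In wing discs Dad gave 0.00 with DESeq2's size factors, 0.00 with DESeq2 and -0.07 over 11 libraries, gbb 0.00 over 11 libraries; on the marker scale tkv gave 0.03, Mad 0.02, brk 0.07 and gbb -0.02. In the interaction brk gave 0.01 with either DESeq2 setting. Between tissues Mad gave -0.13 and Med -0.10 with either.

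Leaving out 1 library, salivary calls ran from 310 (without mutant replicate 3) to 1070 (without mutant replicate 1), and stood at 359 to 578 without the others (other pathway 1 to 10), wing calls from 0 to 45 (0 without wild-type replicate 1 or either mutant), interaction calls from 7 (without wing mutant replicate 2) to 264 (without salivary mutant replicate 1; other pathway 0 to 3), and tissue calls from 5999 to 7497. Salivary log2 values then ran from -0.02 to 0.22 for Mad, -0.12 to 0.09 for Med, -0.17 to 0.02 for brk, -0.21 to 0.31 for Dad and -0.60 to 0.35 for bi. Wing values ran from -0.53 to 0.08 for dpp, -0.36 to 0.26 for tkv, -0.21 to 0.14 for Mad, -0.37 to 0.12 for Med, -0.34 to 0.32 for brk, -0.24 to 0.28 for Dad, -0.73 to 0.20 for bi, -0.78 to 0.21 for salm, -0.73 to 0.01 for salr, -0.66 to 0.28 for ci and -0.03 to 0.13 for gbb. Interaction values ran from -0.08 to 0.53 for dpp, -0.40 to 0.04 for Mad, -0.40 to 0.11 for Med, -0.27 to 0.39 for brk, -0.40 to 0.16 for Dad, -0.84 to 0.27 for bi and -0.01 to 0.25 for gbb. Tissue values ran from -0.12 to 0.24 for Mad and -0.19 to 0.32 for Med. The causes were not tested. Where an arm is left with 1 wing mutant library, its spread is assumed to be that of the other groups. Low counts limit salm, salr and gradient genes such as knrl, kni and vg in mutant salivary glands.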
